A study of Mus musculus with 12 samples.

Results

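The comparison described here set 3 arrays of HtrA2 knockout mouse embryonic fibroblasts (MEFs) against 3 arrays of wild-type MEFs, both exposed to rotenone, and took in 6 of the 12 arrays of the study. The arrays were chosen by their titles, and every probe set other than the array's own controls was compared, 22626 of 22690 in all. The study asked which genes respond differently to rotenone when HtrA2 is missing. Primary MEFs of each genotype were treated at passage 4 for 4 h with 1 µM rotenone or with vehicle, and total RNA of each culture was hybridised to an Affymetrix array, with replicates numbered 1 to 3 in each of the 4 groups.

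HtrA2, also called Omi, is a serine protease that sits between the outer and inner mitochondrial membranes. It takes part in the quality control of mitochondrial proteins, and once released into the cytosol it binds and cleaves inhibitor of apoptosis proteins. Rotenone blocks respiratory complex I, and it also disturbs microtubules.

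Whether a replicate was a separate embryo or only a separate dish is not in the labels, so the p-values cover the spread of these arrays alone. That spread may be technical in part, while replicate 3 also differed from the others in sex-linked transcripts, as given below. Primary MEFs are a mixed mesenchymal population whose make-up can differ from isolate to isolate. In such bulk RNA, fewer cells of a type and less RNA per cell cannot be told apart. One label conflicts with the others: the wild-type arrays in rotenone carry a knockout genotype tag, but their titles say wild type. Of 24 fibroblast genes measured, 22 were brighter than 40% of the probe sets, and the summed level of the list was 16.68 to 16.84 (log2) on the wild-type and 16.60 to 16.90 on the knockout rotenone arrays. Summed leukocyte markers, with 6 of 17 above that level, spanned 10.92 to 11.62 and 11.02 to 11.71, and endothelial markers, with 5 of 12, spanned 11.30 to 11.41 and 11.39 to 11.55.

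The replicate 3 arrays stood apart in all 4 groups. Over all probe sets, replicates 1 and 2 correlated at 0.994 in wild type and 0.996 in knockout under rotenone, and either of them correlated with replicate 3 at 0.984 to 0.987. Xist, transcribed from the inactive X chromosome, was at 8.78 to 9.42 (log2) on the replicate 3 arrays and at 7.07 to 7.51 on the others. Eif2s3y, a Y-linked translation factor, was at 5.92 to 6.44 on the replicate 3 arrays and at 7.38 to 8.0 on the others. Both genotypes had this split, and each result below that rests on replicates 1 and 2 is given with replicate 3 beside it.

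The Htra2 transcript itself was lower in the knockout under rotenone. On its brightest probe set the wild-type arrays read 9.09, 9.02 and 9.14 (log2, replicates 1 to 3) and the knockout arrays 7.66, 7.82 and 7.81. The groups were far apart, and the wild-type arrays with the conflicting tag had the wild-type level. The difference was -1.32 log2 units (SE 0.10), a 2.49-fold lower signal, with a Benjamini-Hochberg adjusted p of 4.44e-05 in limma's moderated test with the replicate number as a block. In vehicle the difference was -1.39. A second Htra2 probe set differed by 0.23 (adjusted p = 0.468 in limma), and where the probes lie relative to the deleted part of the gene was not analysed here.

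Beside Htra2, few genes separated the genotypes. In the limma fit 9 probe sets passed an adjusted p of 0.05, 0.0398% of those tested, 1 higher (0.00442%) and 8 lower (0.0354%) in the knockout. Taken by each gene's brightest probe set, 7 of 12393 genes passed, 0.0565%. En1 rose (0.00807%), and Htra2, Loxl3, Masp1, Hoxa9, Lancl2 and Ampd3 fell (0.0484%). Fmod and Mtss1 passed through a dimmer probe set and are named because their values were seen. At an adjusted p under 0.10 there were 52 probe sets, 0.23%, with 9 higher (0.0398%) and 43 lower (0.19%), and at an unadjusted p under 0.05 there were 2938, or 13%. The call depended on the block: without it only the Htra2 probe set passed, 1 in place of 9, and without replicate 1 limma called 0, with 2080 at an unadjusted p under 0.05.

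Loxl3, a lysyl oxidase-like enzyme of collagen and elastin cross-linking, read 10.76, 10.61 and 11.24 (log2) on the wild-type rotenone arrays and 9.69, 9.85 and 9.98 on the knockout arrays. No knockout array reached the lowest wild-type array, a separation that 1522 of 12393 genes (12.3%) had in one direction or the other. Loxl3 fell by 1.03 log2 units (SE 0.12, adjusted p = 0.00606 in limma). In vehicle it fell by 1.02 (adjusted p = 0.0071), so it passed in both treatments.

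Fmod encodes fibromodulin, a collagen-binding proteoglycan. Its called probe set, a dimmer one, read 8.93, 9.16 and 9.21 in wild type and 6.94, 7.56 and 8.30 in knockout, with the replicate 3 pair closest together. It fell by 1.5 log2 units (SE 0.22, adjusted p = 0.0262 in limma), the largest called difference. The brightest Fmod probe set differed by -0.58 and 4 further ones by -0.73 to -1.03, all short of the threshold.

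Masp1, a serine protease of the lectin pathway of complement, read 10.08, 10.55 and 10.28 in wild type and 9.15, 9.47 and 9.64 in knockout. The groups did not overlap, and Masp1 fell by 0.88 log2 units (SE 0.13, adjusted p = 0.0262 in limma). Its other probe sets differed by 0.09, -0.81, -0.31 and -0.05, so they disagreed.

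Lancl2, a LanC-like protein, read 8.96, 9.29 and 9.33 in wild type and 8.16, 8.46 and 8.66 in knockout. The groups were separate, and Lancl2 fell by 0.77 log2 units (SE 0.10, adjusted p = 0.0102 in limma), with dimmer probe sets at -0.38 and -0.22. Ampd3, an AMP deaminase of purine metabolism, read 7.97, 8.14 and 8.56 in wild type and 7.23, 7.15 and 7.99 in knockout. Its groups overlapped only because the replicate 3 knockout array, at 7.99, lay above the replicate 1 wild-type array, at 7.97. Each pair was lower in the knockout, and Ampd3 fell by 0.76 (SE 0.12, adjusted p = 0.0459 in limma). Mtss1, an actin-binding scaffold of curved membranes, read 6.85, 7.01 and 6.86 in wild type and 6.37, 6.29 and 6.39 in knockout on the called probe set. It fell by 0.56 (SE 0.09, adjusted p = 0.0459 in limma), whereas its other probe sets differed by -0.11 and 0.02. The called Mtss1 probe set was dim, with a mean level of 6.69 over the 12 arrays.

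En1, the engrailed homeobox factor of limb and hindbrain patterning, was the one gene that rose. It read 6.14, 5.78 and 5.88 in wild type and 6.68, 7.02 and 6.61 in knockout. The gene was dim, with a mean level of 6.52 over the 12 arrays, under array medians of 7.53 to 7.58. All knockout arrays lay above all wild-type arrays. The rise was 0.83 log2 units (SE 0.13, adjusted p = 0.0459 in limma), and in vehicle the difference was 0.50 (adjusted p = 0.748).

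**Figure D1:**
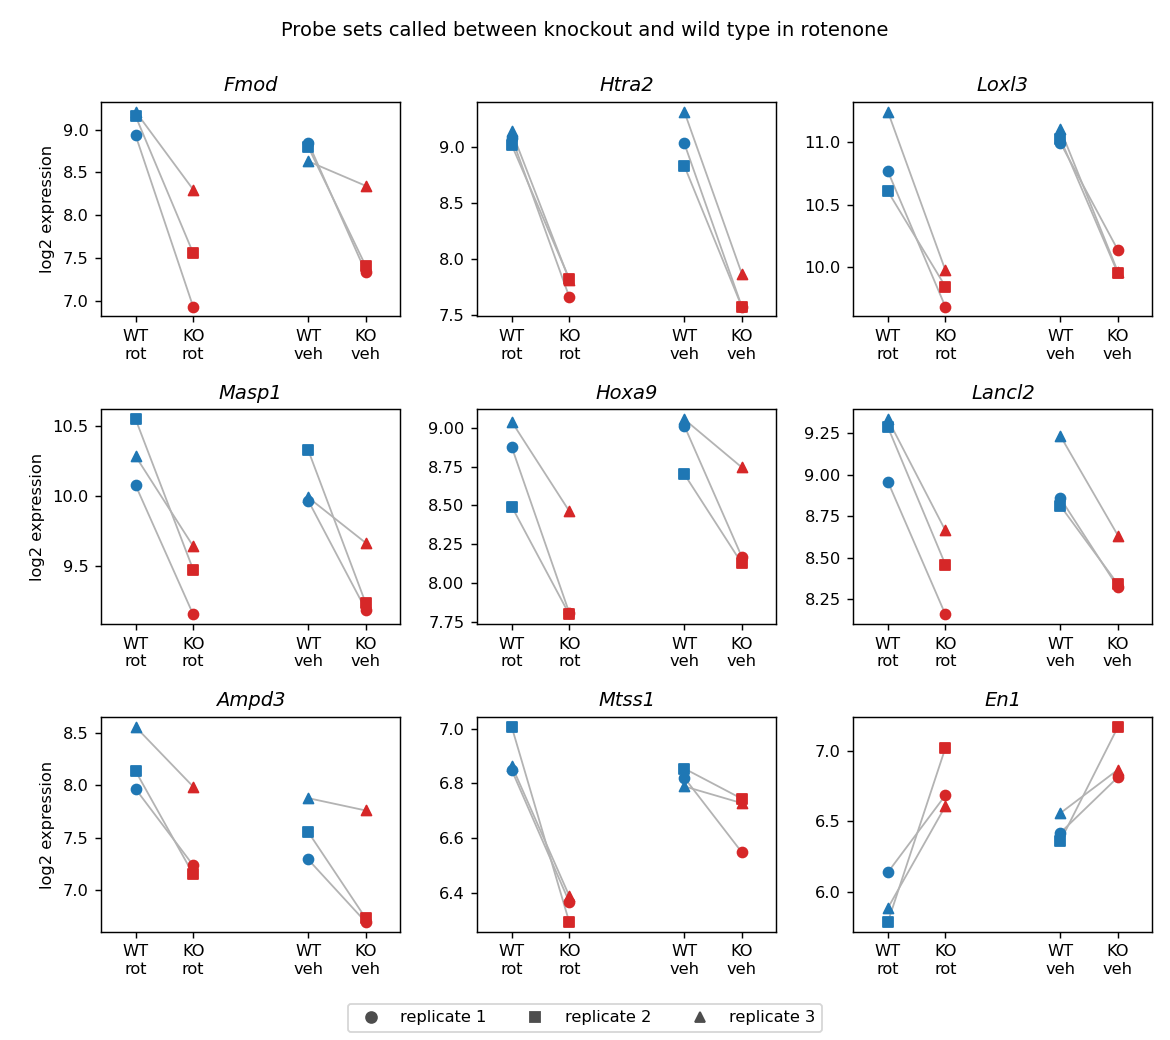
Levels (log2, y axis) of the 9 probe sets called between genotypes in rotenone, on the wild-type (WT, blue) and knockout (KO, red) arrays in rotenone (rot) and vehicle (veh); lines join arrays of the same replicate number, and each panel has its own scale. Every pair in rotenone runs downward except for En1, which runs upward, and vehicle pairs run the same way.

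The vehicle arrays were not in the contrast but entered the fit through the shared spread and block, so a reading on them is not independent of the calls and is given as a description. There the 7 genes all differed in the same direction, in all 3 pairs each, as did 16.7% of all genes. Their median size was 0.83 log2 units in rotenone and 0.58 in vehicle, and 2 of them, Htra2 and Loxl3, also passed the adjusted threshold there. Vehicle and rotenone arrays of 1 number also deviated together. Of 35 genes with an adjusted p under 0.10 in rotenone, 0.282% of all, 35 had the same sign in vehicle, against 69.6% of all genes, and 28 had it in all 3 vehicle pairs. The vehicle comparison itself called 4 probe sets, 0.0177%: Htra2, Loxl3, Ggct and Dpt. Ggct, like Htra2 and Loxl3, lies on chromosome 6, and Dpt on chromosome 1. The Ggct probe set differed by -0.81 in vehicle and by -0.65 in rotenone (adjusted p = 0.068 in limma).

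The genotype effect was not shown to differ between rotenone and vehicle for any probe set. For that difference limma called 0 probe sets at an adjusted p of 0.05, with 295 (1.3%) at an unadjusted p under 0.05, and 0 under every alternative that was run. Taking each gene by its brightest probe set, the smallest p-values belonged to Ctnnd1, Thumpd3, Serpinb2, Hesx1 and Lpar3, each with an adjusted p of 1 when rounded. Ctnnd1, the p120 catenin of cell junctions, read 9.14, 9.56 and 9.67 in wild type and 9.88, 10.16 and 10.24 in knockout under rotenone. Its difference was 0.63 in rotenone (adjusted p = 0.0644 in limma) and 0.08 in vehicle. Thumpd3, an RNA methyltransferase, differed by -0.49 in rotenone and -0.05 in vehicle, and Hesx1, a homeobox repressor, by 0.41 and 0.01.

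By smallest p, the other genes with higher values in the knockout were Lce1h, Cntfr, Fscn1, Rpl39l, Ifit1 and Sim2, at 0.48 to 0.69 log2 units, none past the threshold. Fscn1, the actin-bundling protein fascin, differed by 0.55, and Cntfr, a cytokine receptor subunit, by 0.54. On the lower side the next were Ahr and Aqp1. Aqp1, the water channel aquaporin 1, read 8.85, 8.72 and 9.55 in wild type and 6.31, 6.22 and 8.77 in knockout. Its pairs differed by -2.54, -2.50 and -0.79, so the groups overlapped only through the replicate 3 knockout array, and its difference of -1.94 had an adjusted p of 0.0644 in limma.

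Htra2 lies on mouse chromosome 6, and 4 of the 7 called genes lie there: Htra2, Loxl3, Lancl2 and Hoxa9. They were 4 of 725 measured genes of that chromosome, 0.552%, against 3 of 11668 elsewhere, 0.0257%, and 1 of the 4 is the targeted gene. At an unadjusted p under 0.05 the share was 15.2% on chromosome 6 and 13.7% over all genes, and 5 other autosomes, from 15.5% for chromosome 13 to 17% for chromosome 3, lay above chromosome 6. With replicates 1 and 2 alone, 2.76% of chromosome 6 genes were called and 1.81% of the others. Loxl3 is 2 annotated genes from Htra2, while Lancl2 is 488 and Hoxa9 606 genes away on the same side. At an adjusted p under 0.10, Aqp1, Snx10, Mpp6 and Thumpd3 joined them, at 538, 627 and 670 genes on that side and 479 on the other. Snx10, a sorting nexin of endosomes, read 8.42, 8.52 and 8.76 in wild type and 7.89, 7.99 and 8.37 in knockout, a difference of -0.48 (adjusted p = 0.0644 in limma), with no overlap.

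Among the immediate neighbours of Htra2, only Loxl3 passed. Of 26 measured genes within 30 genes on either side, 1 (Loxl3) passed, and 1 had a higher and 5 a lower value at an unadjusted p under 0.05, where 6.41% of all genes were higher and 7.33% lower. Their median difference was -0.006 log2 units, against 0.018 over all genes. After Loxl3, the smallest adjusted p was 0.199, for Dqx1, a helicase-like gene at 0.43. Both Loxl3 and Aup1 overlap Htra2 in the RefSeq annotation, and Aup1, a lipid droplet and ubiquitin-conjugation factor, differed by -0.04. Whether a probe set reads a shared stretch was not tested.

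**Figure D2:**
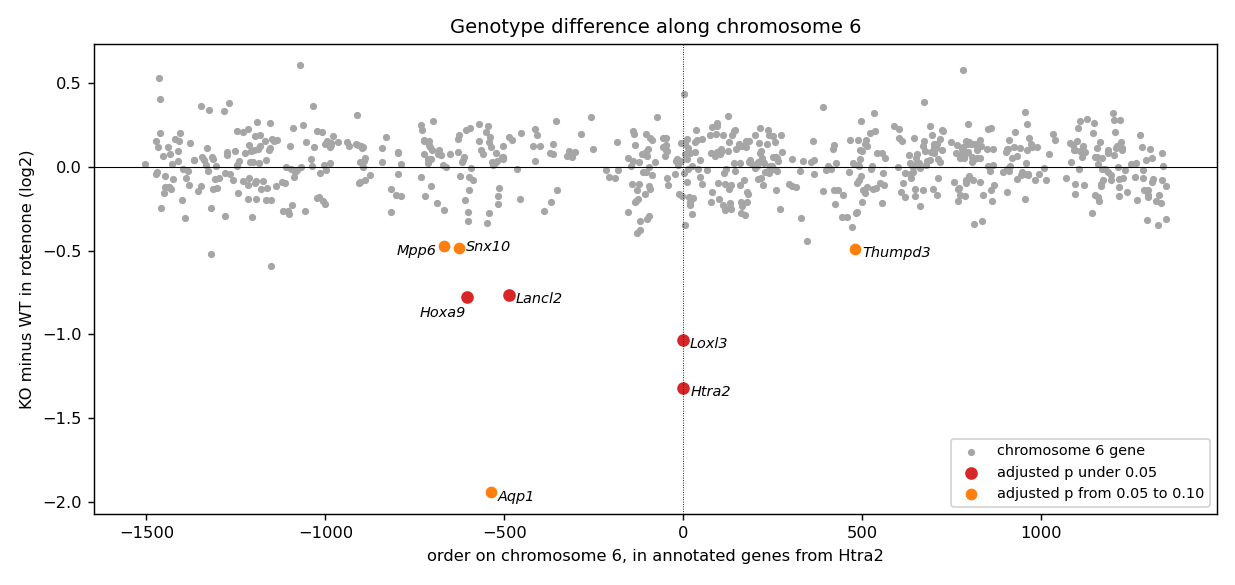
Genotype difference in rotenone (log2, y axis) of the 725 measured chromosome 6 genes by their order from Htra2 (x axis, counted in annotated genes); red and orange points mark adjusted p under 0.05 and from 0.05 to 0.10. The called genes Lancl2 and Hoxa9 lie 488 and 606 genes from Htra2, and Loxl3 lies beside it.

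Hox genes, which record a fibroblast's position along the body and limb axes, included 1 called gene. Of 30 measured, Hoxa9 fell and no other passed, while 8 had higher values at an unadjusted p under 0.05 (26.7%, against 6.41% of all genes) and 3 lower (10%, against 7.33%). Hoxa9 read 8.88, 8.49 and 9.04 in wild type and 7.81, 7.80 and 8.46 in knockout. Its groups were narrowly separate, and it fell by 0.78 log2 units (SE 0.11, adjusted p = 0.0262 in limma). A second Hoxa9 probe set differed by 0.01.

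All 9 measured genes of cluster b and all 5 of cluster c had positive differences, with medians of 0.18 and 0.32, and a difference between clusters was not tested. Hoxc8, a factor of the thoracic level, read 8.93, 8.96 and 8.98 in wild type and 9.51, 9.90 and 9.31 in knockout, without overlap. Its difference was 0.62 (adjusted p = 0.153 in limma). In cluster a, with 4 estimates above and 5 below 0, the median was -0.14, and in cluster d the median of 7 was -0.01. Hoxd10 read 7.11, 7.0 and 7.08 in wild type and 6.50, 6.66 and 6.76 in knockout, a difference of -0.42 (adjusted p = 0.265 in limma). In vehicle the cluster medians were -0.04, 0.20, 0.25 and -0.04 for a, b, c and d.

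**Figure D3:**
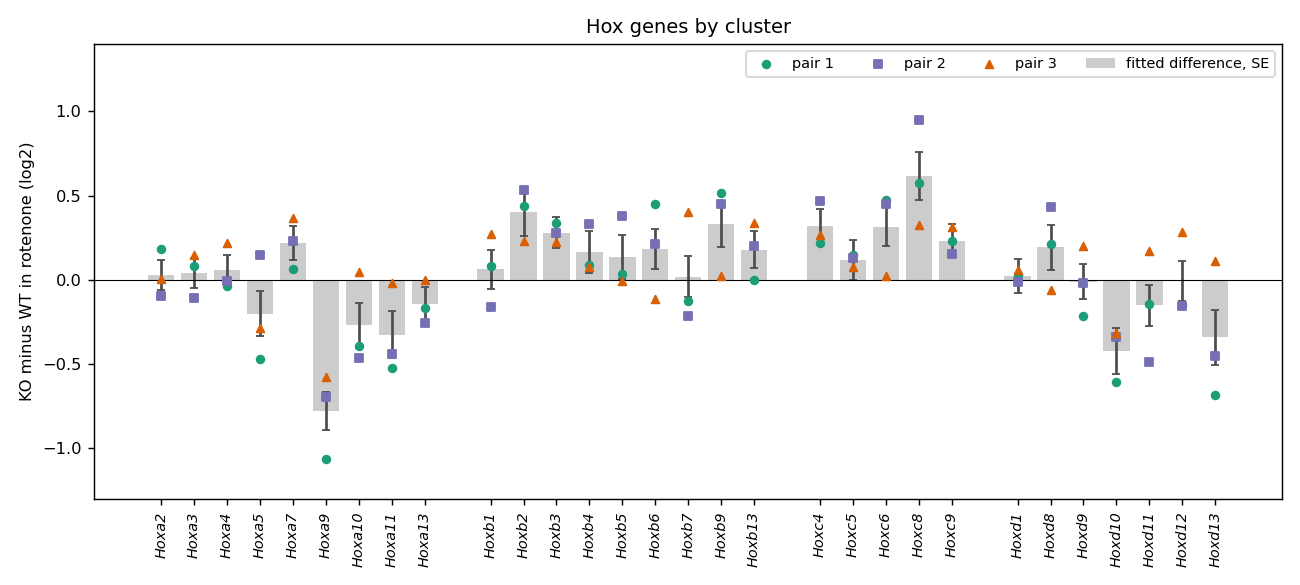
Knockout minus wild-type difference in rotenone (log2, y axis) of the 30 measured Hox genes grouped by cluster; bars show the fitted difference with its SE, and points the 3 same-numbered pairs. Hoxa9 has the lowest bar, at -0.78, and the bars of clusters b and c are all above 0.

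With replicates 1 and 2 alone, 347 probe sets passed in rotenone, 1.53% of those tested, 135 higher (0.597%) and 212 lower (0.937%). By each gene's brightest probe set, 231 genes passed (1.86%), 91 higher (0.734%) and 140 lower (1.13%). The third pair, which that fit did not use, had the same sign for 114 of the 231, or 49.4%, against 56.8% of all genes. Their median size was 0.62 in pairs 1 and 2, and their median in pair 3, counted toward the same direction, was -0.004. Of these genes 33 of the 91 higher ones were also higher in pair 3, and 81 of the 140 lower ones were also lower. On vehicle arrays of replicates 1 and 2, which also entered that fit's spread, 230 of the 231 had the same sign, against 67.3% of all genes. In vehicle pair 3, 108 of the 231 had it, 46.8% against 57.7% of all genes.

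Of the 41 measured collagen and matrix genes, 8 were among the 231, 4 higher and 4 lower, where 0.734% of all genes were higher and 1.13% lower. The median of that list was 0.05 over pairs 1 and 2 and -0.27 in pair 3. Named here after their values were seen, the genes that follow had large differences in pairs 1 and 2. Cxcl5, a neutrophil chemokine, differed by -1.72 over pairs 1 and 2 and by 0.40 in pair 3. Coch, the matrix protein cochlin, read 8.43, 8.25 and 8.62 in wild type and 6.67, 6.67 and 8.24 in knockout. Its difference was -1.67 over pairs 1 and 2 and -0.38 in pair 3. Ptx3, a soluble pattern recognition protein, read 10.39, 9.76 and 9.69 in wild type and 8.74, 8.55 and 10.20 in knockout, so the third pair ran the other way. Moxd1, a monooxygenase-like protein, read 7.39, 7.09 and 7.62 in wild type and 8.65, 8.69 and 7.56 in knockout. It was 1.43 higher over pairs 1 and 2 and differed by -0.06 in pair 3. Anxa8, an annexin, differed by -1.61 and -0.47.

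**Figure D4:**
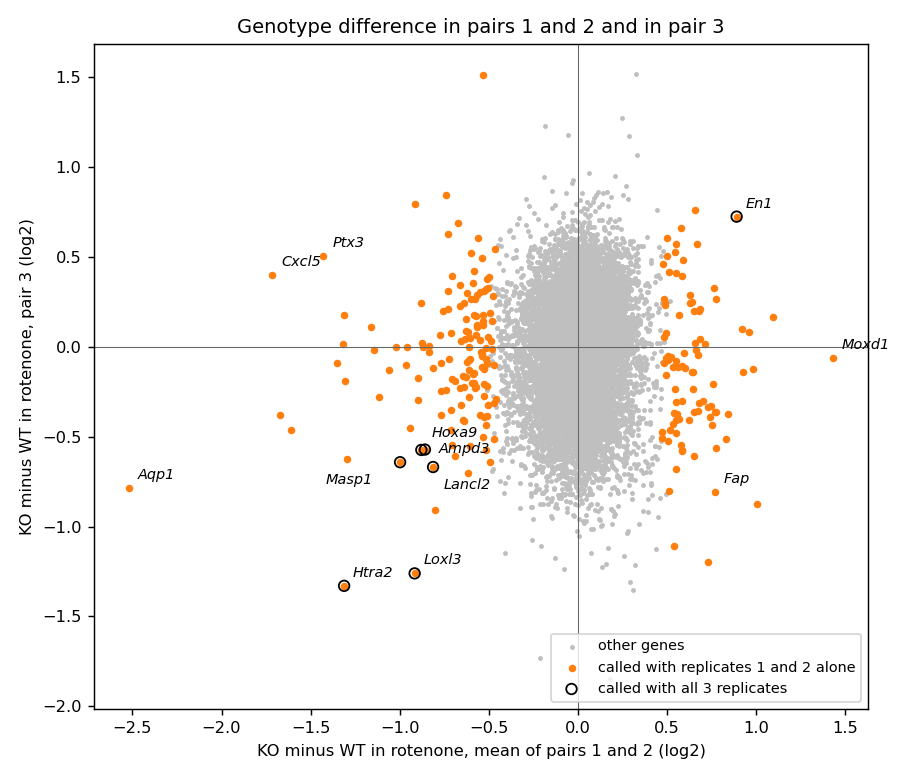
Genotype difference in rotenone (log2) of each gene as the mean of pairs 1 and 2 (x axis) and in pair 3 (y axis); orange points are the 231 genes called with replicates 1 and 2 alone, and circles the 7 genes called with all 3. The circled genes have the same sign on both axes, while the orange points lie on both sides of 0 in pair 3.

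Transcripts of G2 and M phase, the kinases, cyclins and spindle proteins of dividing cells, had lower values in the knockout. Of 35 measured, 0 passed in limma, but 34 estimates were below 0 and 14 had an unadjusted p under 0.05 on the lower side, 40% against 7.33% of all genes. The list's median was -0.27, against 0.018 over all genes, and it was -0.27 in vehicle. By pair it was -0.47, -0.36 and 0.05, so the third pair did not share it. Median levels of the list were 8.55, 8.56 and 9.62 on the wild-type and 7.88, 8.08 and 9.49 on the knockout rotenone arrays, highest on the replicate 3 arrays of both genotypes. With replicates 1 and 2 alone, 15 of the 35 passed, all lower, against 1.13% of all genes. The part that the sex-linked difference of replicate 3 has in this was not tested.

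Mki67, the proliferation antigen Ki-67, read 8.13, 8.56 and 10.13 in wild type and 7.88, 8.08 and 9.49 in knockout. Its difference was -0.46 (SE 0.11, adjusted p = 0.175 in limma), with all 3 pairs below 0. Hmmr, a spindle-associated hyaluronan receptor, differed by -0.40 (adjusted p = 0.175 in limma). Cdc20, an activator of the anaphase-promoting complex, read 10.19, 9.85 and 10.67 in wild type and 9.14, 9.14 and 10.92 in knockout. Its first 2 pairs were -1.05 and -0.71 and the third 0.24.

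Many promoters of this class hold a cell cycle homology region (CHR), searched here as TTTGAA on either strand of the 250 bases before the RefSeq start. It was found in 12 of 30 list genes with a promoter entry, 40%, and in 18.3% of all 27025 genes with one, or 16% of all 32851 promoters. Of 12 with an entry and an unadjusted p under 0.05, 5 held it. A match is a description of the letters only. The windows below (GRCm38.p6, RefSeq, 5′ to 3′ on the strand of the gene, match in capitals) show the element in 3 of the genes with lower values, Mki67 at chr7:135716445-135716504, Ect2 at chr3:27153960-27154019 and Top2a at chr11:99024190-99024249, all on the minus strand.
Mki67: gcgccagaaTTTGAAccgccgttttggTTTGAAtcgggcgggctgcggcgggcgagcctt
Ect2: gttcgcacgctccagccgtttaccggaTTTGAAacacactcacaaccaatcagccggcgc
Top2a: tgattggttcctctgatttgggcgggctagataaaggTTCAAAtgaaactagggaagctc
Ect2, a cytokinesis exchange factor, differed by -0.44, and Top2a, a topoisomerase, by -0.42, with adjusted p = 0.21 and 0.263 in limma.

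Interferon-stimulated genes, the antiviral set induced by type I interferon, had higher values in the knockout on most members. Of 32 measured, 0 passed in limma, 28 estimates were above 0, and 8 had an unadjusted p under 0.05 on the higher side, 25% against 6.41% of all genes. The list's median was 0.17, with 0.11, 0.14 and 0.26 in pairs 1 to 3, and 0.10 in vehicle. The median level of the list, however, was 7.05 in both genotypes of replicate 2. Ifit1, an inhibitor of viral RNA translation, read 5.84, 6.07 and 5.88 in wild type and 6.40, 6.44 and 6.39 in knockout. The groups were separate, and the difference was 0.48 (SE 0.09, adjusted p = 0.0822 in limma). Bst2, the virion tether tetherin, read 7.70, 7.59 and 7.67 in wild type and 8.01, 7.92 and 8.12 in knockout, a difference of 0.36 (adjusted p = 0.173 in limma). Usp18, which removes ISG15 from proteins, read 6.43, 6.34 and 6.0 and then 6.73, 6.71 and 6.49, a difference of 0.39 (adjusted p = 0.202 in limma). Some marker lists of other cell types had positive medians as well, and 6736 of all 12393 genes had estimates above 0. Leukocyte markers had 0.10 with 13 of 17 estimates above 0. Hepatocyte markers had 0.13 with 6 of 7 and erythroid markers 0.12 with 6 of 7. In pair 3 these medians were 0.14, 0.32 and 0.19. There the other such lists had 0.12 (cartilage and bone), 0.07 (neural), 0.02 (adipocyte), -0.05 (skeletal muscle), -0.10 (epithelial) and -0.23 (endothelial). The part of these lists in the result was not tested.

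The interferon-stimulated response element was searched by its core, GAAA followed after any 2 bases by GAAA, on either strand of the same 250 bases. It was found in 12 of 26 list genes with an entry, 46.2%, and in 3.46% of all 27025 genes with one, or 2.98% of all promoters. Of the 6 genes with an entry and an unadjusted p under 0.05, 5 held it. Windows of 3 of those 5, shown for the spacing of their matches, are Ifit1 at chr19:34640779-34640838 (plus strand), Bst2 at chr8:71537562-71537621 (minus strand) and Gbp3, a guanylate-binding protein, at chr3:142559980-142560039 (plus strand), with overlapping matches joined.
Ifit1: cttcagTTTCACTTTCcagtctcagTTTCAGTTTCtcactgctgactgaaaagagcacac
Bst2: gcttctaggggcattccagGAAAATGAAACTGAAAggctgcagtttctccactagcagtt
Gbp3: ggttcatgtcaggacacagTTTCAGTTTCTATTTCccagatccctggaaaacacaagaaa
Gbp3 differed by 0.26 (adjusted p = 0.293 in limma).

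Genes of the integrated stress response, which ATF4 and CHOP drive when translation is checked, had slightly lower values in the knockout. Of 34 measured, 0 passed in limma, 9 had an unadjusted p under 0.05 on the lower side (26.5%, against 7.33% of all genes) and 1, Atf5, on the higher side. The median was -0.13, and -0.11 in vehicle. By pair, in replicate order, the rotenone median was -0.13, -0.16 and -0.04, so the shift was smallest in the last pair. Atf4 itself differed by -0.05 and Ddit3, which encodes CHOP, by -0.14, and the sign of either turned under an alternative. Trib3, a pseudokinase target of CHOP, read 10.85, 10.77 and 9.36 in wild type and 10.60, 10.51 and 8.94 in knockout, a difference of -0.31 (adjusted p = 0.21 in limma). Atf3, a stress-induced repressor, read 8.26, 8.64 and 7.56 and then 7.94, 7.74 and 7.28, a difference of -0.50 (adjusted p = 0.263 in limma). For both genes each pair was lower in the knockout, though the groups overlapped.

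Among mitochondrial proteases and chaperones, the class of HtrA2 itself, Htra2 fell and 0 of the other 24 passed in limma. Of the 25, 23 estimates were below 0 and 6, Htra2 among them, had an unadjusted p under 0.05 on the lower side (24%), where 45.65% of all genes had estimates below 0 and 7.33% were lower at that p. The median was -0.15, and -0.05 in vehicle. Oma1 and Yme1l1, inner membrane proteases that process OPA1, differed by -0.27 and -0.27, and Trap1, a matrix HSP90 chaperone, by -0.25.

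Inhibitor of apoptosis proteins and HtrA2 partners showed little. Of 19 measured, 0 passed in limma and 1 had an unadjusted p under 0.05, Septin4 at 0.30. Xiap, the caspase inhibitor that HtrA2 binds, read 8.98, 8.87 and 9.76 in wild type and 9.11, 9.10 and 9.31 in knockout, a difference of -0.03. Diablo, the other mitochondrial antagonist of these proteins, differed by -0.08, and Birc2 by -0.18. In the BCL2 family of 16, Bak1, a pore-forming effector, read 8.21, 8.70 and 8.0 and then 8.50, 8.98 and 9.17, a difference of 0.58 (adjusted p = 0.294 in limma) that was widest in pair 3.

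Respiratory subunits had medians near 0 in pairs 1 and 2 and above 0 in pair 3, and none passed in limma. For 33 complex I subunits, the target of rotenone, the median was 0.11, with -0.09, 0.00 and 0.41 in pairs 1 to 3 and -0.05 in vehicle. For 39 subunits of complexes II to V it was 0.09, with 0.34 in pair 3. On the replicate 3 arrays, the median level of complex I was 10.76 in wild type and 10.99 in knockout under rotenone. In vehicle it was 11.08 and 10.97. For complexes II to V these levels were 11.34, 11.51, 11.63 and 11.61, so the wild-type rotenone array was the lowest in both lists. In each of these lists 4 subunits had higher values at an unadjusted p under 0.05 (12.1% and 10.3%, against 6.41% of all genes) and 1 had lower values (3.03% and 2.56%, against 7.33%). Ndufa3, an accessory subunit of complex I, differed by 0.36, Ndufs1, an iron-sulfur core subunit, by -0.26, and Sdha, the flavoprotein of complex II, by -0.35. Sdha read 10.98, 10.96 and 11.34 in wild type and 10.68, 10.71 and 10.85 in knockout, without overlap (adjusted p = 0.199 in limma).

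**Figure D5:**
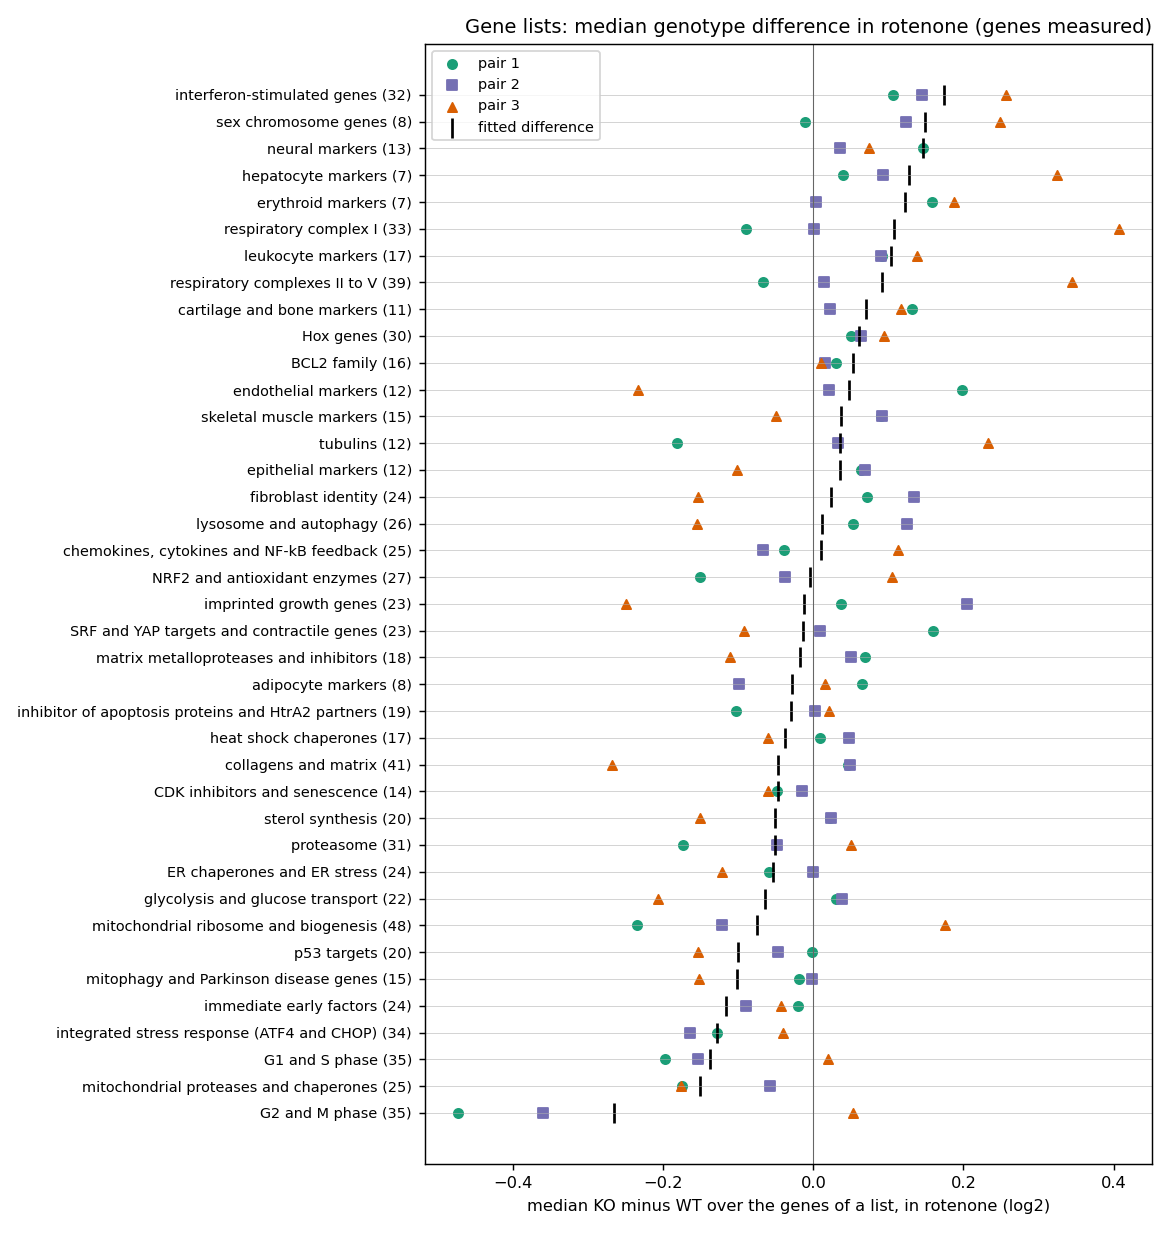
Median genotype difference in rotenone (log2, x axis) over the measured genes of each of 39 lists (y axis, number measured in parentheses), fitted (bar) and in each same-numbered pair (points). Medians run from -0.27 for G2 and M phase to 0.17 for interferon-stimulated genes, and pair 3 lies apart for several lists.

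In the other lists, no gene beyond those named passed in limma, and the medians lay within 0.15 log2 units of 0. G1 and S phase genes had a median of -0.14, proteasome subunits -0.05 and glycolytic genes -0.06. In the chemokine and NF-kB list, 6 of 25 had lower values at an unadjusted p under 0.05, 24% against 7.33% of all genes. Lif, a cytokine of the IL-6 family, read 9.44, 10.34 and 8.87 in wild type and 8.68, 8.87 and 8.58 in knockout, a difference of -0.84 (adjusted p = 0.199 in limma). Nfe2l2, the antioxidant regulator NRF2, read 11.20, 11.14 and 10.52 and then 10.92, 10.74 and 10.10, a difference of -0.37 (adjusted p = 0.179 in limma), lower in each pair. The median of the 27 NRF2 and antioxidant genes was -0.005, with -0.11 over pairs 1 and 2 and 0.11 in pair 3. Mest, an imprinted gene of embryonic growth, read 9.17, 8.72 and 8.73 and then 8.29, 8.39 and 8.18, a difference of -0.59 in rotenone (adjusted p = 0.189 in limma) and -0.05 in vehicle. Its vehicle pairs were -0.52, 0.04 and 0.34, and its genotype effect was not shown to differ between treatments.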

How the data were processed

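The deposited series matrix holds log2 expression values that the authors made with RMA, per the submitters' processing notes (version not given); array medians lay between 7.53 and 7.58. No scanner files were used. Of 22626 non-control probe sets, 20380 had 1 gene symbol in GEO's platform annotation, 691 several and 1555 none; 20351 matched RefSeq (GRCm38.p6). Where a gene had several probe sets, the brightest by its mean over 12 arrays stood for it. limma 3.58.1 (R 4.3.3) fitted 4 group means and the replicate number as a block to all 12 arrays (6 residual degrees of freedom), with Benjamini-Hochberg adjustment over all probe sets and a threshold of 0.05; the procedure was tested on simulated data. All tests were two-sided. Same-numbered arrays deviated together (18 pairs between groups, r from 0.289 to 0.829). Between groups, arrays numbered 1 and 2 had r from -0.053 to 0.476, and either with replicate 3 from -0.688 to -0.262. The numbers thus set replicate 3 apart, while a pairing within replicates 1 and 2 is less clear. Named genes were Htra2, up to 12 called genes each way whose 3 pairs agreed, filled by p to 8, called members of lists or neighbours, the 5 smallest p of the treatment difference, and Atf4, Ddit3 and Trib3; others were chosen after their values were seen. The comparison and the 39 lists (862 of 961 genes measured) were chosen with earlier results of these data known. Alternatives covered the block, left-out replicates and arrays, normalization, dim probe sets, variance settings and the arrays fitted. The number of arrays limits the precision.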

Additional observations from a re-analysis of the deposited data

Results flagged for a closer look

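For 2 of the genes chosen by the naming rule, all 3 pairs ran one way in rotenone and the other way in vehicle. Lpar3, a lysophosphatidic acid receptor, differed by 0.17 between genotypes in rotenone and by -0.21 in vehicle, a change of 0.38 log2 units (unadjusted p = 0.0095, adjusted p = 1 in limma after rounding). Serpinb2, the plasminogen activator inhibitor PAI-2, differed by -0.37 and 0.20, a change of -0.57 (unadjusted p = 0.0036, adjusted p = 1 in limma after rounding). Both genes were dim, with mean levels of 4.15 for Lpar3 and 5.71 for Serpinb2 (log2), under array medians of 7.53 to 7.58. They had been named for a small p of this very difference, and neither passed the adjustment. Over all 12393 genes, 101 (0.815%) had the same pattern of pairs.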

How the results depend on the processing

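The counts of called probe sets moved with the model, and the cause was not tested. Without the replicate block, 1 probe set was called in rotenone, 1 in vehicle and 1 gene on chromosome 6. With a random block these were 2, 2 and 2. With the 6 rotenone arrays alone the count was 1 with the replicate block and 1 without it, each with 1 on chromosome 6. Leaving out 1 replicate or 1 array gave 0 to 347 probe sets in rotenone, 1 to 237 in vehicle and 0 to 20 chromosome 6 genes. Without replicates 1, 2 and 3 the rotenone counts were 0, 1 and 347. Without the wild-type rotenone array of replicate 3 there were 60, without that of wild-type vehicle 36, knockout rotenone 29 and knockout vehicle 21; without the knockout rotenone array of replicate 1 there was 1, and of replicate 2, or the wild-type one of replicate 2, 2. Without wild-type vehicle array 1 or 2, wild-type rotenone array 1 or knockout vehicle array 1 there were 5, 4, 4 and 3. Quantile normalization gave 5 in rotenone and 2 in vehicle; median centring and leaving out dim probe sets each gave 2 in vehicle. An adjusted p under 0.10, chosen after seeing the data, gave 52. Htra2 kept its direction throughout, but had an adjusted p of 0.0593 in limma at -1.26 without replicate 1, and 0.0817 at -0.54 as the mean of both probe sets (range of adjusted p over the alternatives 2.77e-08 to 0.0817); left-out samples gave -1.41 to -1.26. Atf4 turned to 0.010 without replicate 2, 0.059 without wild-type rotenone replicate 2 and 0.071 as the mean of its probe sets, and Ddit3 to 0.060 without wild-type rotenone replicate 2; left-out samples gave -0.19 to 0.059 for Atf4 and -0.40 to 0.060 for Ddit3. Loxl3 lost its call under 6 of 24 alternatives, Lancl2 under 10, Hoxa9 and Masp1 under 15 each, Ampd3 under 18 and En1 under 16 of 23. The called probe sets of Fmod and Mtss1 lost theirs under 14 of 23 and 16 of 22.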

Other observations

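The aryl hydrocarbon receptor Ahr, a ligand-activated factor that induces xenobiotic-metabolising enzymes, had lower values in the knockout. It read 9.03, 9.06 and 7.83 (log2) on the wild-type and 7.61, 7.89 and 7.20 on the knockout rotenone arrays, a difference of -1.07 (adjusted p = 0.0644 in limma) with all pairs below 0 and overlapping groups. Of 9 genes of this pathway, listed after seeing the data, 4 besides Ahr had negative differences and 4 had positive ones, with known targets on both sides. Over all genes, 45.65% had estimates below 0. Tiparp, a poly-ADP-ribose polymerase, differed by -0.64 (adjusted p = 0.0819 in limma), Cyp1b1 by -0.54 (adjusted p = 0.132) and Ahrr, the receptor's repressor, by -0.58 (adjusted p = 0.262), the last with 0.02 in pair 3. Nqo1, a quinone reductase, differed by -0.22 (adjusted p = 0.693), with -0.72, -0.64 and 0.69 in pairs 1 to 3. Cyp1a1 differed by 0.01, Cyp1a2 by 0.13, Aldh3a1 by 0.02 and the partner Arnt by 0.01. The first 3 of these were dim, with mean levels of 5.60, 6.08 and 4.06 over the 12 arrays. In vehicle Ahr differed by -0.66, Tiparp by -0.25 and Cyp1b1 by -0.31.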
